A study of Mus musculus with 12 samples.

Results

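Tumours given radiotherapy together with a 4-1BB agonist aimed at fibroblasts were compared with tumours of the control group. The members are the libraries whose treatment label reads "Radiotherapy and muFAP-4-1BBL" (RT_FAP41BBL, 3 libraries) and those labelled "None" (control, 3 libraries, the group the series' design text calls vehicle). These are 6 of the 12 libraries of the series. All 12 are polyA RNA libraries from tumours labelled TS/A+CAF, a mouse breast cancer cell line with cancer-associated fibroblasts, of WT genotype. The other 6 libraries, radiotherapy alone (RT, 3 libraries) and the agonist alone (FAP41BBL, 3 libraries), were used for comparisons of the combination with each single treatment. The labels used here give no strain, age, radiation dose, agent dose or time of harvest, and tie no library to an animal. The p-values below therefore set group differences against the scatter among these samples, and that scatter may be technical.

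4-1BB, encoded by Tnfrsf9, is a costimulatory receptor of activated T cells and natural killer cells that signals through TRAF adaptors and NF-kB. Its ligand is encoded by Tnfsf9, and an agonist that joins this ligand to a binder of fibroblast activation protein (FAP) is meant to signal where fibroblasts carry that surface protease. Ionising radiation breaks DNA and activates p53, whose targets halt the cell cycle, and DNA or RNA sensed in the cytosol induces type I interferon and the genes it controls. Cells make cholesterol through the mevalonate pathway, which the transcription factor SREBP-2 (encoded by Srebf2) switches on when sterols are low and which 25-hydroxycholesterol holds back.

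Counts were summed per gene, and levels are given as CPM, the count scaled to a common library size, in the libraries numbered 1, 2 and 3. Differences are on the log2 scale with their standard error, and adjusted p is the Benjamini-Hochberg value of edgeR's quasi-likelihood F test over the 17757 genes that passed the filter on low counts, called at 0.05. The control libraries held 35176469 to 38174041 counts and the RT_FAP41BBL libraries 37393177 to 38446771.

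Against control, 1404 genes passed the test (7.91% of those tested), of which 993 were higher (5.59%) and 411 lower (2.31%) in RT_FAP41BBL. Among them 451 were more than 2-fold higher and 71 more than 2-fold lower. Among the lists described below, the largest share of members that rose was in the type I interferon list (32 of 34) and the largest share that fell was in the cholesterol list (20 of 27). In bulk tumour RNA, fewer cells of a type and less RNA per cell cannot be told apart, and this holds for every gene below. The number of calls rests on few libraries: leaving out 1 library at a time gave 351 calls (without control 2) to 914 calls (without RT_FAP41BBL 1). In a fit that held each library's level of muscle transcripts as a covariate, 740 genes passed.

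The libraries of each group were not alike in the tissue they held. Of 26 skeletal muscle markers tested, 0 passed edgeR, DESeq2 or limma-voom (1 was higher at an unadjusted p under 0.05). Their median log2 difference from control was nevertheless 1.00, with 25 of 26 above 0, against a median of 0.01 over all tested genes. Their summed counts took 0.00768% to 0.0852% of the control libraries and 0.0755% to 0.136% of the RT_FAP41BBL libraries, against 0.776% to 1.79% of the RT libraries. Myh7 was at 0 in control 2 and 3, and Myl2 in control 3. Of 16 keratinocyte and hair follicle markers, 0 passed any of these (1 was lower at an unadjusted p under 0.05), and their summed share was 0.0813% in control 2 against 0.00112% to 0.00366% in control 1 and 3 and 0.00201% to 0.00416% in RT_FAP41BBL. Their median log2 difference was -2.02, with 1 of 16 above 0. In control 3, Krt15, Krt73, Dsg1a and Dsc3 were at 0. Fibroblast markers took 1.64% to 2.05% of the control libraries and 1.62% to 1.72% of the RT_FAP41BBL libraries. The part of these markers in the results was not tested beyond the covariate fits given here and in the closing section.

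**Figure D1:**
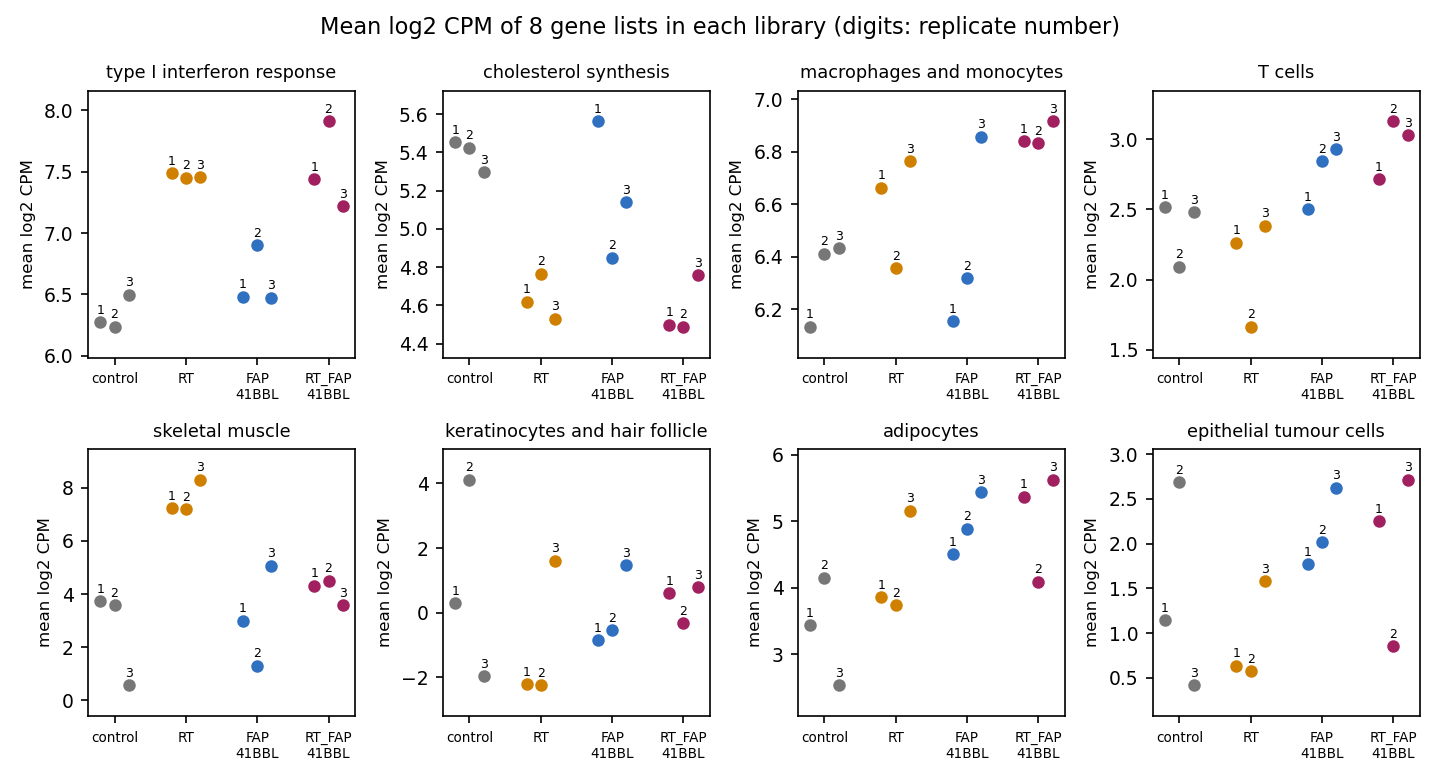
Mean log2 CPM of 8 gene lists in each of the 12 libraries (vertical axis, log2 CPM with a prior count of 2), by treatment group (horizontal axis); digits are replicate numbers. The type I interferon list lies higher in the 3 RT_FAP41BBL libraries than in the 3 control libraries, the cholesterol list lies lower, and the muscle list is highest in RT.

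The labelled tumour and fibroblast origin was set against markers. Krt8, an epithelial keratin, was present at 309.9, 373 and 335 CPM in control and 254, 247 and 259 CPM in RT_FAP41BBL. Epcam, an epithelial adhesion molecule, was near 0 in control 1 and 3, at 0.421, 4.04 and 0.0824 CPM, and stood at 4.13, 0.375 and 8.18 CPM in RT_FAP41BBL, so the groups overlapped. Grhl2 was at 0 in control 1 and 3, and Cldn3 and Esrp1 were at 0 in control 3.

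Neither the target of the agent nor the endogenous ligand of its receptor passed the test. Fap (ENSMUSG00000000392.18, GRCm39 chr2:62331287-62404419) was at 4.77, 8.37 and 10.3 CPM in control and 10.4, 5.92 and 6.75 CPM in RT_FAP41BBL (log2 difference -0.03 ± 0.44, adjusted p = 0.979), and its groups overlapped. The direction of this difference changed with the fit, as given in the closing section. Tnfrsf9, the 4-1BB receptor (ENSMUSG00000028965.14, chr4:150999019-151030559), was at 20.5, 20.6 and 24.3 CPM in control and 25.4, 33.8 and 32 CPM in RT_FAP41BBL (log2 difference 0.48 ± 0.15, adjusted p = 0.0691). All 3 RT_FAP41BBL libraries lay above all 3 control libraries, but the difference did not pass. The closing section counts calls under other settings among this gene and others that did not pass. Tnfsf9, the natural ligand, was at 9.57, 9.73 and 11.3 CPM in control against 11.8, 12 and 10.8 CPM (log2 difference 0.18 ± 0.15, adjusted p = 0.509). These counts come from RNA of the tumour and say nothing of the injected protein.

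Type I interferon-induced genes were higher as a group. Of 34 members tested, 32 rose and 0 fell, with a median log2 difference of 1.14, against a median of 0.01 over all tested genes. In all 34, every RT_FAP41BBL library lay above every control library, an order found for 20% of all tested genes (and the opposite order for 18.5%). Of the 32, 24 passed whichever of the 6 libraries was left out, and the count ran from 24 (without control 2) to 32. Irf7, the transcription factor that amplifies interferon production (ENSMUSG00000025498.16, chr7:140842619-140846394), was at 276, 255 and 298 CPM in control and 824, 1339 and 747 CPM in RT_FAP41BBL (log2 difference 1.81 ± 0.20, adjusted p = 0.00194). Rsad2, which encodes the antiviral enzyme viperin, was at 44, 45.6 and 64.3 CPM in control against 170.1, 242 and 133 CPM (log2 difference 1.83 ± 0.24, adjusted p = 0.00246). Both genes were highest in RT_FAP41BBL 2.

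Genes for 2′-5′-oligoadenylate synthetases, which sense double-stranded RNA, moved the same way. Oas3 was at 85.5, 93 and 121 CPM in control and 241, 369.7 and 225 CPM in RT_FAP41BBL (log2 difference 1.48 ± 0.22, adjusted p = 0.00366), and Oasl1, a relative of these enzymes that regulates interferon responses, was at 35, 36 and 49.4 CPM in control against 109, 168 and 92.9 CPM (log2 difference 1.62 ± 0.20, adjusted p = 0.00232). Ifit3, whose product takes part in the block of viral RNA, was at 46.8, 44 and 59.1 CPM in control against 153, 271 and 125 CPM (log2 difference 1.87 ± 0.25, adjusted p = 0.00263), and its close relative Ifit3b at 17.6, 16.3 and 19 CPM in control against 59.1, 103 and 44.2 CPM (log2 difference 1.96 ± 0.27, adjusted p = 0.00282). The near-identical Ifit genes share reads, and how the counting split them is uncertain. Mx1, a GTPase that acts against viruses, rose by 2.0 on the log2 scale, and Isg15, a ubiquitin-like modifier, by 1.30 (adjusted p = 0.0126, and 0.0704 without control 2). Eif2ak2, a kinase that double-stranded RNA activates, did not pass (log2 difference 0.52 ± 0.17, adjusted p = 0.0771).

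Promoters of the interferon genes with the smallest p that hold the core letters of the interferon-stimulated response element are printed here because this list held the most genes that rose. The letters searched were GAAANNGAAA, on both strands, in windows from 250 bases before to 50 after the start site (RefSeq, GRCm38.p6, a build other than that of the counts). They were found in 14 of 24 list members with a window (58.3%), in 86 of 714 genes that were higher (12%), in 3 of 296 that were lower (1.01%) and in 463 of 11961 tested genes (3.87%). The interferon-gamma response list held them in 10 of 21 members with a window (47.6%). The 250 bases before the start site are shown 5′ to 3′ on the strand of the gene, with each match in capitals. The Rsad2, Ifit3 and Ifit3b matches lie on the opposite strand and the Oas3 match on the strand shown.
Rsad2, chr12:26456453-26456702 (reverse strand): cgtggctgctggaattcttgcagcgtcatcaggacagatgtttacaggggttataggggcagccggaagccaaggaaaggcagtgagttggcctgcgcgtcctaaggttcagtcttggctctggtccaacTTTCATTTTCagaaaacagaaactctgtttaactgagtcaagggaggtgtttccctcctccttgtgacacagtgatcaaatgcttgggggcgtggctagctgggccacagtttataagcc
Ifit3, chr19:34583279-34583528 (forward strand): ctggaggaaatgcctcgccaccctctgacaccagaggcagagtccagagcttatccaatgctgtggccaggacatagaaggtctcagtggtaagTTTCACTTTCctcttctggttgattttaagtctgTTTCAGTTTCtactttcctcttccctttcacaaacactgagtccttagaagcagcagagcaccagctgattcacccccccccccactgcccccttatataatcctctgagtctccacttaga
Ifit3b, chr19:34607707-34607956 (forward strand): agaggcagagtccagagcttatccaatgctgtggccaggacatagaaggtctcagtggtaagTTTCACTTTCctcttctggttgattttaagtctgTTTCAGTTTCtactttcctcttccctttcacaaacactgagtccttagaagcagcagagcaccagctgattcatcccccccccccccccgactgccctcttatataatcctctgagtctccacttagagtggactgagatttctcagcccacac
Oas3, chr5:120777660-120777909 (reverse strand): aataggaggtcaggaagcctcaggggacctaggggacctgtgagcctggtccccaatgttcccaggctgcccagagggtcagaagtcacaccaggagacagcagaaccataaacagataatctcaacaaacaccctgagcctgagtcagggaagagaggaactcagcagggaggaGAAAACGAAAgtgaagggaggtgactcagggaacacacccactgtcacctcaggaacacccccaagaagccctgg
The match began 120 bases before the start site in Rsad2 and 75 in Oas3, the 2 matches of Ifit3 began 156 and 122 bases before it, and the 2 of Ifit3b 188 and 154. The Irf7 and Oasl1 windows hold no match to these letters. A match is a description of the letters and not of binding.

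Genes that sense nucleic acids included 15 of 21 tested that rose and 0 that fell (median log2 difference 0.78), with 6 of the 15 called whichever library was left out (6 called without control 2, 9 without RT_FAP41BBL 2). Irf7 and several others stand in both lists. Aim2, a sensor of cytosolic DNA that forms an inflammasome, was at 16.9, 14 and 15.2 CPM in control and 27.8, 32.2 and 33.1 CPM in RT_FAP41BBL (log2 difference 1.01 ± 0.17, adjusted p = 0.00592). Ikbke, a kinase that activates interferon regulatory factors, was at 53, 48.9 and 55.4 CPM in control against 98.2, 106 and 97 CPM (log2 difference 0.94 ± 0.17, adjusted p = 0.00662). Tlr7, the endosomal sensor of single-stranded RNA, rose by 1.07 and Tlr9, the endosomal sensor of DNA, by 1.66 on the log2 scale, calls lost in 1 and 4 of the 6 fits with a library left out. Cgas, the sensor of cytosolic DNA upstream of STING, did not pass (log2 difference 0.39 ± 0.12, adjusted p = 0.0706), nor did the adaptor Mavs (log2 difference 0.10 ± 0.08, adjusted p = 0.495) or the factor Irf3 (log2 difference -0.01 ± 0.11, adjusted p = 0.966).

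Calls in the interferon-gamma response list depended on single libraries. Of 30 members tested, 12 rose and 0 fell, with a median log2 difference of 0.79, but 0 of the 12 passed whichever library was left out: 0 were called by edgeR without control 2 (18 higher at an unadjusted p under 0.05), 2 without RT_FAP41BBL 2, 4 without control 1, 5 without RT_FAP41BBL 3 and 15 without RT_FAP41BBL 1. Cxcl10, a chemokine that draws activated T cells, was at 60, 49.8 and 73.3 CPM in control and 103, 196 and 116 CPM in RT_FAP41BBL (log2 difference 1.18 ± 0.23, adjusted p = 0.0115, and 0.0671 without control 2). Cxcl9, a chemokine of the same receptor, was at 277, 163 and 282 CPM in control against 214, 425 and 419 CPM, with overlapping groups (log2 difference 0.55 ± 0.41, adjusted p = 0.465). Ciita, the master regulator of MHC class II, did not pass (log2 difference 0.35 ± 0.53, adjusted p = 0.747), and of 12 MHC class II genes tested Ctss, the protease cathepsin S, was the 1 that rose, from 832, 615 and 763 CPM to 1493, 1960.0 and 1853 CPM (log2 difference 1.26 ± 0.19, adjusted p = 0.00366). Of 22 MHC class I genes, 2 rose (H2-Q7 and H2-T23); both calls were lost in 5 of the 6 fits with a library left out, and 0 passed with the muscle covariate or without control 1, 2 or 3 or RT_FAP41BBL 2 or 3. These copies resemble each other, and their separate counts are uncertain.

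Targets of p53 rose in 13 of 35 tested genes and fell in 0 (median log2 difference 0.41). The count was 4 without control 2, 5 without RT_FAP41BBL 2, 7 without control 3, 8 without RT_FAP41BBL 1 or 3, and 7 with the muscle covariate. Whichever library was left out, 4 genes passed: Cdkn1a, Trp53cor1, Sesn2 and Btg2. Cdkn1a, the cell cycle inhibitor p21 (ENSMUSG00000023067.15, chr17:29309950-29319701), was at 36.9, 47.4 and 41.3 CPM in control and 137, 157 and 116 CPM in RT_FAP41BBL (log2 difference 1.71 ± 0.14, adjusted p = 0.000251). Trp53cor1, a long noncoding RNA transcribed beside Cdkn1a (chr17:29276404-29298153), was at 0.140, 0.103 and 0.192 CPM in control against 1.35, 1.47 and 1.58 CPM (log2 difference 3.31 ± 0.42, adjusted p = 0.00232). Sesn2, a stress protein that restrains mTORC1, was at 13.8, 13.2 and 15 CPM in control against 22.8, 28 and 23.7 CPM (log2 difference 0.83 ± 0.11, adjusted p = 0.00246). Btg2, an antiproliferative factor, was at 22.9, 18.2 and 19.1 CPM in control against 36.4, 42.2 and 37.7 CPM (log2 difference 0.95 ± 0.14, adjusted p = 0.0028).

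Other p53 targets had smaller or less stable differences. Mdm2, the ubiquitin ligase that degrades p53, differed by 0.53 (adjusted p = 0.0128) and Plk2, a polo-like kinase, by 0.41 on the log2 scale (adjusted p = 0.00891, and 0.0766 without control 2). Bax and Bbc3, which promote apoptosis, differed by 0.51 and 0.71, and both calls were lost with any 1 of the 6 libraries left out. Ccng1, which encodes cyclin G1, was at 128, 115 and 107 CPM in control and 158, 149 and 150.1 CPM in RT_FAP41BBL (log2 difference 0.39 ± 0.10, adjusted p = 0.0416, lost in 5 of the 6 fits), below the 211, 215 and 250.5 CPM of RT (log2 difference -0.56 ± 0.10, adjusted p = 0.0128). Of 28 genes of the G2/M phase and 30 of the G1/S phase, edgeR called 0 in either direction (limma-voom 0). DESeq2 called 2 G2/M genes lower and 1 G1/S gene higher, and edgeR fitted on the control and RT_FAP41BBL libraries alone called 17 G2/M genes lower and 1 G1/S gene higher. At an unadjusted p under 0.05, 8 G2/M genes were lower and 2 G1/S genes higher. The G2/M median was -0.31, with 25 of the 28 lower in every RT_FAP41BBL library than in every control library. This order was found for 18.5% of all tested genes. Mki67, a marker of cycling cells, was at 409, 402 and 451 CPM in control against 322, 305 and 399 CPM (log2 difference -0.30 ± 0.22, adjusted p = 0.467).

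**Figure D2:**
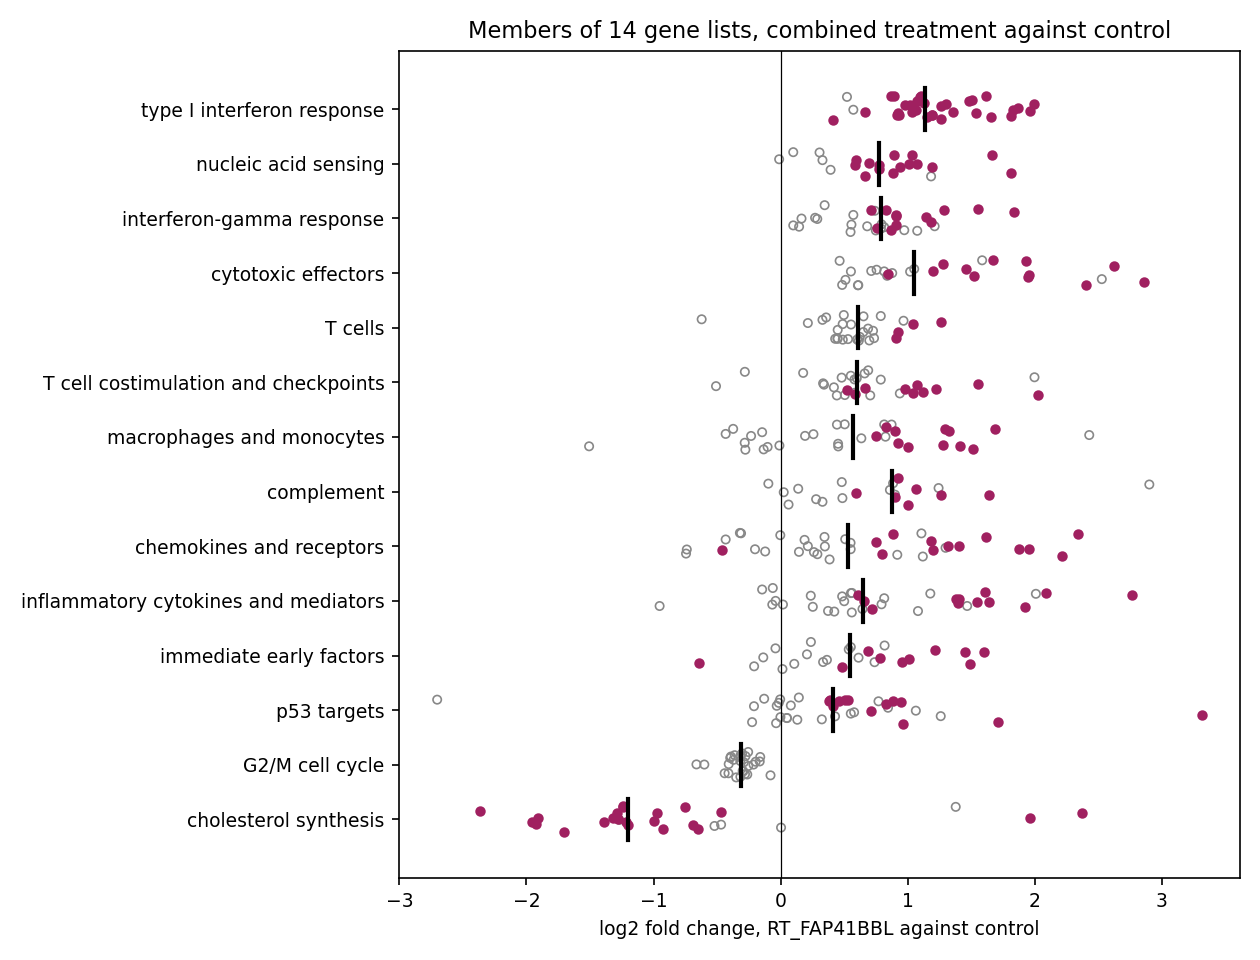
Log2 difference of RT_FAP41BBL from control (horizontal axis) for the tested members of 14 gene lists (rows); filled points passed the test at an adjusted p of 0.05, open points did not, and the bar is the list's median. Interferon-induced genes lie to the right with a median of 1.14 and cholesterol genes to the left with a median of -1.2.

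Cytotoxic effector genes rose in 12 of 27 tested and fell in 0 (median log2 difference 1.05). The count was 5 without control 2 and 6 without RT_FAP41BBL 2, and Gzmb, Gzmc, Gzme, Prf1 and Ccl5 were called in every case. Gzmb, the protease granzyme B of cytotoxic granules (ENSMUSG00000015437.6, chr14:56496295-56499717), was at 25.4, 14.2 and 24.2 CPM in control and 66.1, 109.9 and 68.2 CPM in RT_FAP41BBL (log2 difference 1.94 ± 0.33, adjusted p = 0.00758). Prf1, the pore-forming perforin, was at 13.3, 9.45 and 15.1 CPM in control against 30, 49 and 41.5 CPM (log2 difference 1.67 ± 0.29, adjusted p = 0.00812). The granzymes of the neighbouring cluster were higher too, with Gzmc at 8.93, 10.6 and 4.64 CPM in control against 31, 33.9 and 28.5 CPM (log2 difference 1.95 ± 0.26, adjusted p = 0.00246) and Gzmd, Gzme and Gzmf differing by 2.62, 2.40 and 2.86, the last lost in 5 of the 6 fits. These copies are near-identical and their separate counts are uncertain. Ifng, the cytokine interferon-gamma, was at 1.6, 1.11 and 0.879 CPM in control and 2.29, 4.82 and 3.67 CPM in RT_FAP41BBL; the groups did not overlap, but the difference did not pass (log2 difference 1.59 ± 0.48, adjusted p = 0.0656).

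Few markers of T cells themselves passed the test. Of 28 tested, 4 rose, among them Cd2, Cd4 and Cd28, and 0 fell, with a median of 0.61, and none of the 4 passed whichever library was left out. edgeR called 0 of the 28 without control 2 or without RT_FAP41BBL 2 (6 and 7 higher at an unadjusted p under 0.05), 1 without RT_FAP41BBL 3 or control 3, and 2 without control 1 or with the muscle covariate. Cd8a, which marks CD8 T cells, was at 19.6, 11.1 and 18.9 CPM in control and 18.2, 21.6 and 28 CPM in RT_FAP41BBL, with overlapping groups (log2 difference 0.45 ± 0.32, adjusted p = 0.435). Cd4, which marks helper and regulatory T cells, was at 12.4, 9.06 and 12.4 CPM in control against 17.9, 25.9 and 19.9 CPM (log2 difference 0.91 ± 0.22, adjusted p = 0.0276). Foxp3, the factor of regulatory T cells, did not pass (log2 difference 0.67 ± 0.31, adjusted p = 0.207). Cd2, an adhesion receptor of T cells (log2 difference 0.92 ± 0.22, adjusted p = 0.0265), and Cd28, the receptor of the first costimulatory signal (log2 difference 1.04 ± 0.29, adjusted p = 0.0467), were higher. The calls of Cd4, Cd2 and Cd28 were lost in 5, 4 and 6 of the 6 fits with a library left out.

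Costimulation and checkpoint genes rose in 10 of 29 tested (median 0.60). The count was 2 without control 2, 3 without RT_FAP41BBL 2, and 6 without control 3 or RT_FAP41BBL 3. Havcr2, the checkpoint receptor TIM-3 that is also carried by macrophages and dendritic cells, was at 36, 32.1 and 30.8 CPM in control and 64.4, 71.5 and 72.5 CPM in RT_FAP41BBL (log2 difference 1.07 ± 0.15, adjusted p = 0.00246), a narrow range within each group. Cd274, the checkpoint ligand PD-L1, was at 66.1, 59.4 and 91.1 CPM in control against 149, 276 and 212 CPM (log2 difference 1.55 ± 0.33, adjusted p = 0.0197); its call was lost in 4 of the 6 fits with a library left out. Slamf7, a receptor of natural killer cells, plasma cells and activated macrophages, is not in this list. It was at 9.99, 7.31 and 12.4 CPM in control against 37.3, 65.2 and 50.8 CPM (log2 difference 2.37 ± 0.35, adjusted p = 0.00431). Pdcd1, the receptor PD-1, did not pass (log2 difference 0.51 ± 0.27, adjusted p = 0.286).

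Genes of 4-1BB signalling and NF-kB rose in 6 of 23 tested (median 0.29), with 2 called without control 2 and 3 without RT_FAP41BBL 2. Nfkbiz, a nuclear cofactor of NF-kB that its activity induces, was at 48, 46.1 and 52 CPM in control and 108, 113 and 104 CPM in RT_FAP41BBL (log2 difference 1.16 ± 0.17, adjusted p = 0.00288). Icam1, an adhesion molecule for leukocytes, was at 29.7, 28.4 and 30.9 CPM in control against 53.8, 76.8 and 66.6 CPM (log2 difference 1.15 ± 0.19, adjusted p = 0.00566). Traf1, an adaptor that binds 4-1BB, was at 14.3, 15 and 17 CPM in control against 23.4, 31.5 and 22.1 CPM (log2 difference 0.73 ± 0.14, adjusted p = 0.00827). Rel, Birc3 and Bcl2a1b, an NF-kB subunit and survival proteins, rose by 0.59, 0.48 and 1.05, calls lost in 2, 4 and 6 of the 6 fits with a library left out.

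Chemokine genes rose in 12 of 36 tested and fell in 1 (Ccr1, -0.46, lost with any 1 library left out), with a median of 0.53, and 7 rose without control 2 or control 3. Ligands that draw monocytes and T cells were among them. Ccl2 was at 26.1, 26.3 and 32.9 CPM in control and 70.3, 92.8 and 62.5 CPM in RT_FAP41BBL (log2 difference 1.40 ± 0.18, adjusted p = 0.00232), and Ccl7, a neighbour with the same receptor, at 21, 20.5 and 28.7 CPM in control against 69.9, 87.8 and 57.8 CPM (log2 difference 1.62 ± 0.22, adjusted p = 0.00246). Ccl4, which activated macrophages and T cells secrete, was at 5.58, 4.14 and 7.08 CPM in control against 23.3, 35 and 27 CPM (log2 difference 2.34 ± 0.40, adjusted p = 0.00777), and Ccl5, which T and natural killer cells secrete, at 26.6, 21.8 and 29.6 CPM in control against 85.5, 145 and 71 CPM (log2 difference 1.96 ± 0.26, adjusted p = 0.00246). All of these were called whichever library was left out. Cxcl13, which draws B cells and follicular helper T cells, was at 23.4, 23 and 21.1 CPM in control against 98.3, 65.5 and 83.3 CPM (log2 difference 1.87 ± 0.43, adjusted p = 0.0265), a call lost with any 1 library left out.

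Inflammatory cytokines and mediators rose in 12 of 34 tested and fell in 0 (median 0.65; 6 without control 2 and 7 without RT_FAP41BBL 2). Tnf, the cytokine TNF-alpha (ENSMUSG00000024401.15, chr17:35418357-35420983), was at 2.72, 2.91 and 4.70 CPM in control and 16.8, 30 and 23.3 CPM in RT_FAP41BBL (log2 difference 2.76 ± 0.36, adjusted p = 0.00246). Ptgs2, the inducible enzyme of prostaglandin synthesis, was at 38, 48.4 and 49.6 CPM in control against 113, 111 and 135 CPM (log2 difference 1.40 ± 0.16, adjusted p = 0.00194). Genes that dampen inflammation were higher as well: Il10 was at 1.49, 1.16 and 1.54 CPM in control against 4.69, 4.45 and 3.91 CPM (log2 difference 1.64 ± 0.27, adjusted p = 0.00481), and Il1rn, the receptor antagonist of interleukin-1, rose by 1.40. Il12b and Il27, which encode cytokine subunits of antigen-presenting cells, rose by 1.61 and 1.55, calls lost in 5 and 2 of the 6 fits with a library left out.

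Of 24 immediate early factors, which cells induce within minutes of a stimulus or of tissue handling, 9 rose and 1 fell (median 0.55). Egr1 was at 20.6, 21.6 and 26.1 CPM in control and 59.4, 79.4 and 68.7 CPM in RT_FAP41BBL (log2 difference 1.6 ± 0.16, adjusted p = 0.001), and Fos at 23.6, 22.6 and 22.7 CPM in control against 46.9, 55.1 and 57.7 CPM (log2 difference 1.21 ± 0.17, adjusted p = 0.0027). Dusp1, a phosphatase induced with them, was lower (log2 difference -0.64 ± 0.15, adjusted p = 0.0258), a call lost with any 1 library left out. The time between tissue removal and RNA extraction is not given in the labels, and its part in these values was not tested. Of 20 heat shock genes, edgeR, DESeq2 and limma-voom called 0 (edgeR on these groups alone 1 lower), and 2 were lower at an unadjusted p under 0.05.

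**Figure D3:**
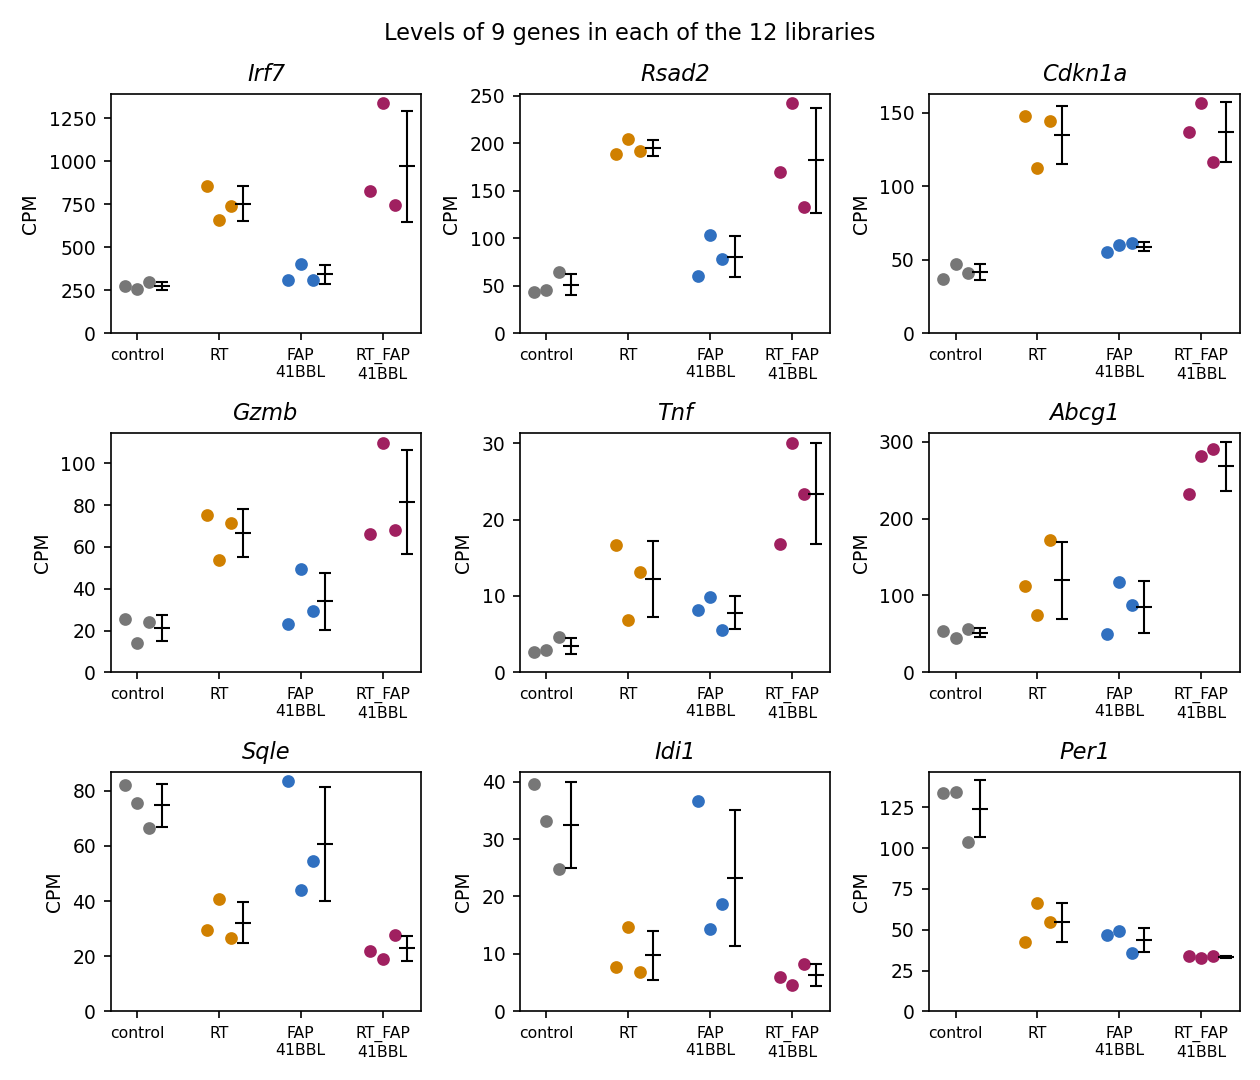
CPM of 9 genes (vertical axes) in each of the 12 libraries by treatment group (horizontal axes), with the group mean and SD at the right of each group's points. For Irf7, Rsad2 and Cdkn1a the values of RT and RT_FAP41BBL overlap, whereas Abcg1 has its 3 highest values in RT_FAP41BBL.

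Macrophage and monocyte markers rose in 11 of 32 tested and fell in 0 (median 0.57). Their summed share of counts was 0.889%, 1.14% and 1.34% in the control libraries and 1.30%, 1.48% and 1.51% in RT_FAP41BBL, so that the groups overlapped. Fcgr1, the high-affinity receptor of antibodies, was at 100.5, 93 and 115 CPM in control and 229.5, 281 and 247 CPM in RT_FAP41BBL (log2 difference 1.30 ± 0.15, adjusted p = 0.00194). Adgre1, the macrophage marker F4/80, was at 161, 136 and 161 CPM in control against 338, 393 and 419 CPM (log2 difference 1.33 ± 0.20, adjusted p = 0.00393). Ly6c2, a surface protein of inflammatory monocytes, was at 18.9, 16.3 and 17.7 CPM in control against 49.3, 78.2 and 43 CPM (log2 difference 1.69 ± 0.19, adjusted p = 0.00194). The count was 5 without control 2 and 7 without RT_FAP41BBL 2, and Fcgr1, Adgre1, Ly6c2, Ms4a7 and Plac8 were called in every case.

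Other macrophage genes did not pass. Mrc1, the mannose receptor CD206, differed by -0.28 (adjusted p = 0.65), Arg1, which breaks down arginine, by -0.14 (adjusted p = 0.873) and Cd163, a haemoglobin scavenger receptor, by -0.01 (adjusted p = 0.996). Cx3cr1, the fractalkine receptor, was at 79.6, 88.1 and 115 CPM in control and 67.4, 56.9 and 85.4 CPM in RT_FAP41BBL, with overlapping groups (log2 difference -0.43 ± 0.30, adjusted p = 0.433). In the dendritic cell list, Mgl2, a lectin of some dendritic cells and macrophages, was at 4.24, 7.67 and 9.61 CPM in control against 4.10, 2.20 and 1.88 CPM (log2 difference -1.39 ± 0.34, adjusted p = 0.028), a call lost in 4 of the 6 fits with a library left out.

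Complement genes rose in 7 of 20 tested (median 0.87; 2 without control 2, 3 without RT_FAP41BBL 2 or 3, and 4 with the muscle covariate). C3ar1, the receptor of the C3a fragment, was at 138, 133 and 159.6 CPM in control and 327, 359.7 and 349 CPM in RT_FAP41BBL (log2 difference 1.26 ± 0.15, adjusted p = 0.00194). Cfb, the protease of the alternative pathway, was at 3.98, 3.58 and 4.56 CPM in control against 11.5, 14.9 and 11.4 CPM (log2 difference 1.64 ± 0.22, adjusted p = 0.00246). C1qa, a subunit of the recognition protein C1q that macrophages make, was at 714, 596 and 763 CPM in control against 1180.0, 1518 and 1462 CPM (log2 difference 1.00 ± 0.22, adjusted p = 0.016), a call lost in 3 of the 6 fits.

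Some of the largest rises lay outside these lists. Htra4, a secreted serine protease (ENSMUSG00000037406.8, chr8:25514945-25528978), was at 2.30, 1.65 and 1.98 CPM in control and 18.5, 15.3 and 15.4 CPM in RT_FAP41BBL (log2 difference 3.05 ± 0.38, adjusted p = 0.00232). Fcrl5, an Fc receptor-like protein of B cells, was at 6.06, 3.37 and 2.25 CPM in control against 28.4, 23.8 and 22.8 CPM (log2 difference 2.68 ± 0.53, adjusted p = 0.0142); its call was lost in 2 of the fits with a library left out. Rgs16, which ends G protein signals, was at 11.2, 11.3 and 10.9 CPM in control against 31.5, 44.9 and 37.8 CPM (log2 difference 1.77 ± 0.14, adjusted p = 0.000251), and Rasgef1b, an exchange factor of macrophages that Toll-like receptors induce, at 16.2, 13.9 and 18.9 CPM in control against 64.8, 79.1 and 58 CPM (log2 difference 2.04 ± 0.20, adjusted p = 0.001). The spread within each group was small beside the difference for these genes.

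The largest rises against control among the genes named, in Prlr and Cyp2e1, were uneven across the RT_FAP41BBL libraries. Prlr, the prolactin receptor, was at 0.225, 0.360 and 0.275 CPM in control and 8.59, 0.402 and 18.7 CPM in RT_FAP41BBL (log2 difference 4.99 ± 1.21, adjusted p = 0.0363), with RT_FAP41BBL 2 close to control. Cyp2e1, a cytochrome P450 of liver and fat, was at 0.730, 1.73 and 0.796 CPM in control against 38.9, 4.34 and 37 CPM (log2 difference 4.61 ± 1.13, adjusted p = 0.0406) and was again lowest in RT_FAP41BBL 2. Both calls were lost in 5 of the 6 fits with a library left out, with adjusted p up to 0.124 and 0.135. The fat marker Adipoq, which encodes the hormone adiponectin, was also lowest of the 3 in RT_FAP41BBL 2, at 2.61, 4.25 and 0.494 CPM in control against 21, 5.62 and 26.5 CPM (log2 difference 2.85 ± 1.00, adjusted p = 0.122). Of 19 adipocyte markers, 3 rose and 1 fell, with a median log2 difference of 1.65 and 16 of 19 above 0. With any 1 library left out 1 or 2 rose and 0 fell, while 13 rose with the keratinocyte score as a covariate and 9 by DESeq2. Their summed share was 0.108% to 0.128% in control and 0.18%, 0.102% and 0.213% in RT_FAP41BBL. Lep was at 0 in control 3. The part of fat and gland tissue in the Prlr and Cyp2e1 differences was not tested.

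Genes of cholesterol synthesis and uptake, listed together with efflux and oxysterol genes, were the list with the most falls. Of 27 tested, 20 fell and 2 rose, with a median log2 difference of -1.2. In 23, all RT_FAP41BBL libraries lay below all control libraries. Over all tested genes, 2.31% fell and 18.5% had this order. With 1 library left out, 10 (without RT_FAP41BBL 2), 12 (without RT_FAP41BBL 1 or control 2) or 13 (without control 1) to 18 fell, and 10 fell in every case. Srebf2, the factor that drives the pathway (ENSMUSG00000022463.9, chr15:82031382-82089580), was at 226, 246 and 269 CPM in control and 92.5, 92.7 and 120.3 CPM in RT_FAP41BBL (log2 difference -1.28 ± 0.16, adjusted p = 0.00232). Insig1, which retains the SREBP machinery in the endoplasmic reticulum and is itself a target of SREBP-2, was at 47.6, 43.6 and 40 CPM in control against 18.1, 18.1 and 20.8 CPM (log2 difference -1.2 ± 0.21, adjusted p = 0.00622).

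Along the pathway the size of the fall varied. Hmgcs1, which makes HMG-CoA, was at 94.7, 76.9 and 67.9 CPM in control and 32.8, 28.1 and 40.7 CPM in RT_FAP41BBL (log2 difference -1.24 ± 0.24, adjusted p = 0.0114, and 0.0584 without RT_FAP41BBL 2). Idi1, the isomerase of isopentenyl diphosphate (ENSMUSG00000058258.16, chr13:8935537-8942487), was at 39.6, 33.1 and 24.7 CPM in control against 5.94, 4.66 and 8.34 CPM (log2 difference -2.36 ± 0.41, adjusted p = 0.00827) and had the largest fall of the list. Fdps, the next synthase, was at 136, 129 and 111 CPM in control against 30, 28.1 and 38.8 CPM (log2 difference -1.96 ± 0.41, adjusted p = 0.0205), a call lost in 5 of the 6 fits with a library left out.

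The steps from squalene onward fell too. Sqle, squalene epoxidase (ENSMUSG00000022351.15, chr15:59186926-59203041), was at 82.2, 75.4 and 66.5 CPM in control and 21.8, 19.1 and 27.8 CPM in RT_FAP41BBL (log2 difference -1.71 ± 0.24, adjusted p = 0.00284). Lss, which closes the sterol ring, was at 47.7, 48.1 and 42.2 CPM in control against 22.9, 22.3 and 25.4 CPM (log2 difference -0.97 ± 0.13, adjusted p = 0.00246). Cyp51, the lanosterol demethylase, was at 79.6, 64 and 54.9 CPM in control against 16, 14.4 and 22.3 CPM (log2 difference -1.91 ± 0.34, adjusted p = 0.00959, and 0.0522 without RT_FAP41BBL 2). Ebp, a sterol isomerase of the same pathway, showed almost no difference (log2 difference 0.00 ± 0.11, adjusted p = 0.987), and Tm7sf2 and Pmvk did not pass (adjusted p = 0.0896 and 0.113).

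Of the efflux and oxysterol genes, Abcg1 and Ch25h rose. Abcg1, the transporter that loads cholesterol onto lipoprotein, was at 53.4, 44.9 and 56.6 CPM in control and 232, 281 and 290.4 CPM in RT_FAP41BBL (log2 difference 2.38 ± 0.34, adjusted p = 0.00393). Ch25h, an interferon-inducible enzyme that makes 25-hydroxycholesterol, was at 23.4, 30.4 and 40 CPM in control against 101.4, 162 and 103 CPM (log2 difference 1.97 ± 0.31, adjusted p = 0.00545). Abca1, the other main exporter, was at 58.6, 86.3 and 103 CPM in control against 212, 194 and 238 CPM; the groups did not overlap, but the difference did not pass (log2 difference 1.38 ± 0.42, adjusted p = 0.0749).

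**Figure D4:**
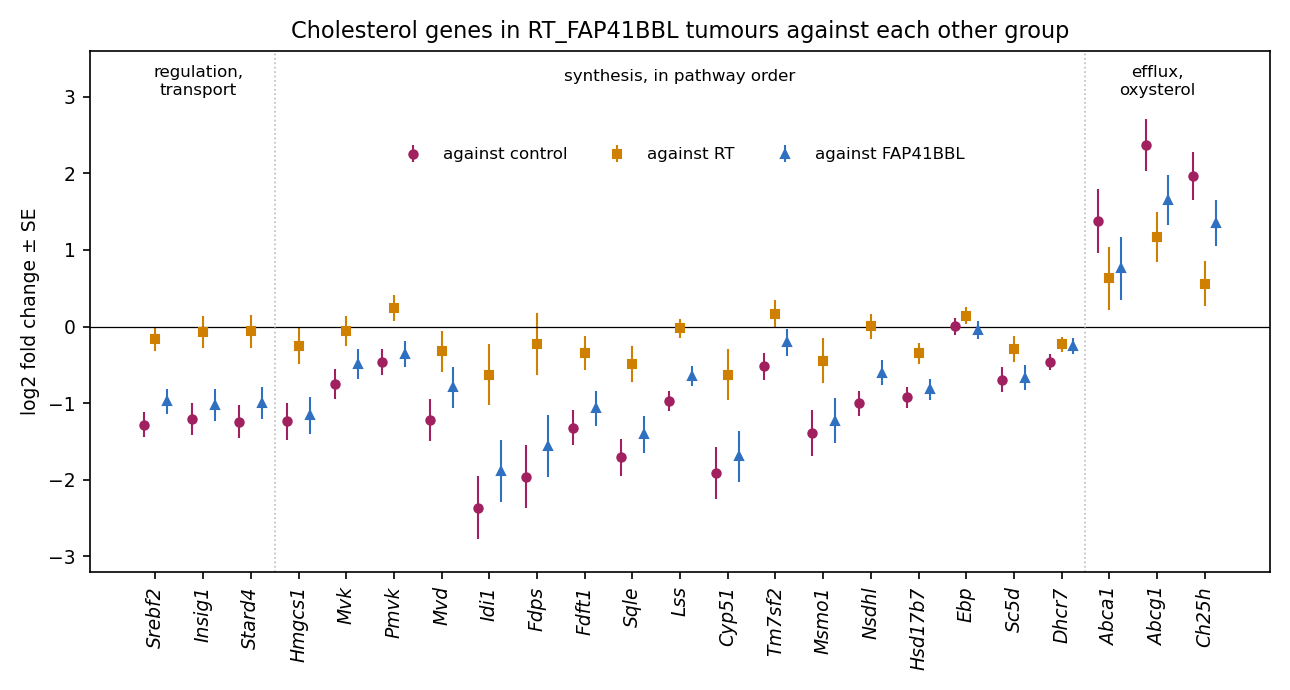
Log2 difference ± SE of RT_FAP41BBL from control, RT and FAP41BBL (vertical axis) for 23 of the 27 cholesterol genes (horizontal axis), ordered as regulation and transport, synthesis in pathway order, and efflux and oxysterol genes. Against control Idi1 lies lowest, at -2.36, and Abcg1 highest, at 2.38.

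Promoters of the cholesterol genes were searched for the sterol regulatory element (letters TCACNCCAC) and for the NF-Y box (letters CCAAT), on both strands in the same windows of 300 bases. The sterol element letters were found in 1 of 18 members with a window (5.56%, Hmgcs1), against 1.44% of tested genes, and the CCAAT letters in 16 of 18 (88.9%), against 42.2%. The 250 bases before the Hmgcs1 start site are shown because this gene alone held the sterol element letters, which are in capitals and begin 137 bases before the start; 3 CCAAT matches lie in the same stretch.
Hmgcs1, chr13:119690101-119690350 (forward strand): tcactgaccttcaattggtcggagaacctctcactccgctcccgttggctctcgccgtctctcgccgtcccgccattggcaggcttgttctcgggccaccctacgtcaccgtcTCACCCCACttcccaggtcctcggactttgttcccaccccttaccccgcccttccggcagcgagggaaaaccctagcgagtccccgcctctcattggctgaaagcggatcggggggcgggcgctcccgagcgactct

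Per1, part of the circadian clock and inducible by glucocorticoids (ENSMUSG00000020893.18, chr11:68986043-69000786), fell from 134, 135 and 104 CPM in control to 34.1, 32.7 and 33.7 CPM in RT_FAP41BBL (log2 difference -1.89 ± 0.17, adjusted p = 0.000406). Tsc22d3, a glucocorticoid-induced regulator, was at 159, 152 and 99.5 CPM in control against 69.1, 55.4 and 55.1 CPM (log2 difference -1.19 ± 0.19, adjusted p = 0.00466), whereas Fkbp5, another glucocorticoid target, had overlapping groups (log2 difference -0.32 ± 0.20, adjusted p = 0.383). Of 24 clock and glucocorticoid genes tested, 3 fell and 1 rose in RT_FAP41BBL against control. In RT against control 2 of them fell and 2 rose. In FAP41BBL against control 1 of them fell, the only gene called in that comparison. Between RT_FAP41BBL and FAP41BBL edgeR called 0 of them (DESeq2 2 higher), with log2 differences no lower than -0.49. Of 31 hypoxia and glycolysis genes, 3 fell and 0 rose, and 1 fell without control 2 or RT_FAP41BBL 2. Ddit4, an inhibitor of mTORC1 induced by stress, was at 75.4, 67.3 and 71.6 CPM in control against 29.7, 30.8 and 28.8 CPM (log2 difference -1.26 ± 0.23, adjusted p = 0.00921), and Aldoc and Egln3, a glycolytic enzyme and an oxygen sensor, had log2 differences of -1.2 and -0.77, calls lost in 5 and 3 of the 6 fits with a library left out. Per1, Tsc22d3 and Ddit4 were called whichever library was left out. Per1 follows the time of day, and the labels give no hour of harvest, so its part was not tested.

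Stromal and B cell lists held few calls. Of 29 fibroblast genes, 1 rose (Tagln, a smooth muscle and myofibroblast protein, 0.91) and 1 fell (Mmp2, a matrix protease, -0.50), with a median of -0.03. Of 30 endothelial genes, Kdr, the receptor VEGFR2, rose (0.91), as did Eng, and Apln, a peptide of sprouting vessels, fell (-0.72). The calls of Mmp2 and Eng were lost with any 1 library left out, that of Tagln in 5 of 6 fits and that of Kdr in 3, while Apln was never lost. Of 23 B and plasma cell genes, 4 rose and 1 fell, and 1 rose in 4 of the 6 fits with a library left out. Cd22, a B cell receptor, was at 6.26, 4.74 and 7.22 CPM in control and 16.6, 25 and 20.4 CPM in RT_FAP41BBL (log2 difference 1.77 ± 0.28, adjusted p = 0.00409), whereas Jchain, the joining chain of secreted antibodies, was at 7.91, 4.07 and 6.73 CPM in control against 1.15, 1.07 and 3.43 CPM (log2 difference -1.73 ± 0.45, adjusted p = 0.0355). The Cd22 call was never lost and that of Jchain was lost in 5 of the 6 fits. Of 16 mast cell and eosinophil genes and 10 erythroid genes, edgeR, DESeq2 and limma-voom called 0, and 0 had an unadjusted p under 0.05.

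The same 3 RT_FAP41BBL libraries were then compared with radiotherapy alone, and 1022 genes passed (5.76% of those tested), 596 higher (3.36%) and 426 lower (2.4%). This count ran from 70 to 2305 with 1 library left out. With the muscle score as a covariate edgeR called 0, although 1484 genes were higher and 981 lower at an unadjusted p under 0.05: that score was higher in every RT library than in every other library, so the treatment and the muscle content of RT cannot be told apart. The largest falls were of muscle genes, such as Myh7, a myosin, which was at 29.4, 56.2 and 104 CPM in RT and 0.0764, 0.911 and 0.0268 CPM in RT_FAP41BBL (log2 difference -7.55 ± 0.88, adjusted p = 0.00449).

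The interferon list, the p53 target Cdkn1a and the cholesterol list gave few or no calls between RT and RT_FAP41BBL. Of 35 p53 targets tested, edgeR called 1 higher (2.86%) and 3 lower (8.57%), against 3.36% and 2.4% of all tested genes. DESeq2 called 3 higher and 5 lower, and both counts were 0 with the muscle covariate. Of the 34 interferon genes, edgeR, DESeq2 and limma-voom called 0, and 0 had an unadjusted p under 0.05 (median log2 difference 0.09). Of the 27 cholesterol genes edgeR called 0 (median -0.14), DESeq2 and limma-voom each called 1 higher, and 1 was higher and 2 lower at an unadjusted p under 0.05. Irf7 was at 859, 656 and 739.8 CPM in RT (log2 difference 0.37 ± 0.20, adjusted p = 0.296) and Cdkn1a at 148, 112 and 144 CPM (log2 difference 0.02 ± 0.14, adjusted p = 0.947). Sqle was at 29.4, 40.6 and 26.5 CPM in RT (log2 difference -0.49 ± 0.23, adjusted p = 0.239), overlapping RT_FAP41BBL and below control. A p above the threshold does not show that the treatments had equal levels.

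T cell genes were higher in the combination than in RT in 11 of 28 tested (39.3%, median 0.90), against 3.36% of all tested genes. The T cell count was 0 with the muscle covariate. With 1 library left out that count ran from 1 (without RT 2, without RT_FAP41BBL 2 or without RT_FAP41BBL 3) to 16 (without RT 3). Cd4 was at 8.04, 6.02 and 9.42 CPM in RT (log2 difference 1.44 ± 0.23, adjusted p = 0.00844) and was called whichever library was left out. Cd8a was at 11.1, 4.34 and 10.5 CPM in RT (log2 difference 1.39 ± 0.32, adjusted p = 0.0321), while the RT_FAP41BBL libraries overlapped the control libraries. The same was seen for H2-DMb1, a chaperone of MHC class II loading, at 90.6, 64.9 and 80.3 CPM in control, 41.8, 12.9 and 39.5 CPM in RT and 61.1, 120.2 and 129.5 CPM in RT_FAP41BBL (log2 difference 1.72 ± 0.41, adjusted p = 0.0399), and for Cx3cr1, at 24.5, 14.7 and 35.2 CPM in RT (log2 difference 1.49 ± 0.31, adjusted p = 0.0232). The calls of Cd8a and Cx3cr1 against RT were lost in 5 of the 6 fits with a library left out, and that of H2-DMb1 in 3.

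Other lists also held genes higher than in RT, against 3.36% of all tested genes. Macrophage and monocyte genes were higher in 10 of 32 (1 lower), MHC class II genes in 4 of 12 and costimulation genes in 6 of 29. Complement, dendritic cell and chemokine genes were higher in 4 of 20, 5 of 27 and 6 of 36. The macrophage, MHC class II and costimulation counts ran from 0 to 13, 0 to 6 and 0 to 8 with 1 library left out. Each of these counts was 0 with the muscle covariate. Of 27 cytotoxic effector genes, edgeR called 3 higher and 0 lower than in RT, with log2 differences from -1.84 to 1.14. DESeq2 called 7 higher and 3 lower, and limma-voom 4 higher and 3 lower. Gzmb was at 75.3, 53.7 and 71.3 CPM in RT (log2 difference 0.28 ± 0.31, adjusted p = 0.642), with overlapping groups. Cxcl13 was at 15.4, 8.20 and 32.3 CPM in RT (log2 difference 2.15 ± 0.43, adjusted p = 0.0232), a call lost in 4 of the 6 fits with a library left out. Lilra5, an activating receptor of myeloid cells, was at 6.71, 2.48 and 5.91 CPM in RT and 20.6, 23.9 and 28.4 CPM in RT_FAP41BBL (log2 difference 2.27 ± 0.38, adjusted p = 0.0112, and 0.0626 without RT_FAP41BBL 3). Slc13a3, a transporter of dicarboxylates, was at 2.22, 1.24 and 2.02 CPM in RT against 8.41, 8.22 and 9.52 CPM (log2 difference 2.25 ± 0.28, adjusted p = 0.00338) and was called whichever library was left out. Of 20 heat shock genes 6 were lower than in RT, a count that ran from 1 (without RT_FAP41BBL 3) to 12 (without RT 3), was 2 with any other library left out and 0 with the muscle covariate. Hsph1 was the 1 lower in every fit with a library left out. Hsph1, a chaperone of the HSP110 family, was at 177, 236 and 188 CPM in RT and 78.5, 86.9 and 87.9 CPM in RT_FAP41BBL (log2 difference -1.25 ± 0.16, adjusted p = 0.00377).

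Against the agonist alone, 168 genes passed (0.946% of those tested), 146 higher (0.822%) and 22 lower (0.124%), with 0 to 132 called when 1 library was left out. The interferon list had 17 of 34 higher (median 0.92), but 0 without FAP41BBL 1 or without FAP41BBL 3 (31 and 32 higher at an unadjusted p under 0.05), 20 without FAP41BBL 2 and 21 without RT_FAP41BBL 3. Irf7 was at 312, 403 and 312 CPM in FAP41BBL (log2 difference 1.5 ± 0.20, adjusted p = 0.0188) and Cdkn1a at 55.5, 60.1 and 61.5 CPM (log2 difference 1.21 ± 0.14, adjusted p = 0.0188, and 0.134 in the 1 fit with a library left out that lost it). Of the 27 cholesterol genes 8 were lower and 1 higher (median -0.79), with 0 lower without FAP41BBL 1, FAP41BBL 3, RT_FAP41BBL 1 or RT_FAP41BBL 2 (17 to 19 lower at an unadjusted p under 0.05). Sqle was at 83.7, 43.9 and 54.5 CPM in FAP41BBL (log2 difference -1.41 ± 0.24, adjusted p = 0.0267), and library FAP41BBL 2 was the lowest of the 3. Mgl2 was at 11.8, 12.8 and 18.2 CPM (log2 difference -2.38 ± 0.35, adjusted p = 0.0188), above its control level. All calls against FAP41BBL named here were lost in at least 1 such fit.

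Of the 993 genes higher than control, 296 were also higher than RT, 141 also higher than FAP41BBL, and 71 higher than all 3 other groups. These comparisons share the RT_FAP41BBL libraries, so the counts are not independent. They also rest on the calls against FAP41BBL, of which edgeR made 0 without FAP41BBL 1, and against RT, of which it made 0 with the muscle covariate. Some of the 71 are given here, chosen after their values were seen. Cd300e, an activating receptor of monocytes, was at 68.8, 69.4 and 75.9 CPM in RT_FAP41BBL against 23.8, 15 and 10.8 CPM in control, 22.7, 12.9 and 32.5 CPM with radiotherapy alone and 13.7, 23.49 and 13.3 CPM with the agonist alone, though the Cd300 genes resemble each other and their separate counts are uncertain. Htra4 was at 5.58, 2.96 and 8.35 CPM in RT and 2.14, 5.24 and 3.28 in FAP41BBL, and Adgre1 differed from RT by 0.83 and from FAP41BBL by 1.10. Havcr2 differed from them by 0.89 and 1.01, and Cfb by 0.82 and 1.62. Abcg1 was at 112, 74.3 and 172 CPM in RT (log2 difference 1.16 ± 0.33, adjusted p = 0.0624) and 50.1, 118 and 87.2 CPM in FAP41BBL (log2 difference 1.65 ± 0.33, adjusted p = 0.0494); all 3 RT_FAP41BBL libraries lay above the other 9, but the difference from RT did not pass. Of the 411 lower genes, 15 were also lower than RT, 20 lower than FAP41BBL and 1, Meis2, a homeobox factor singled out after its values were seen, lower than all 3 groups.

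Whether radiotherapy changed a gene by a different amount with the agonist than without it was tested over all 4 groups, and 27 genes passed (0.152% of those tested). Of these, 5 are described in the closing section. The interaction was tested in the fit as reported alone. Tnf, Ccl4 and Gzmb, which differed from control in the combination, did not pass this test (adjusted p = 0.872, 0.921 and 0.761), nor did Abcg1 (adjusted p = 0.729). With 3 libraries a group, a p above the threshold does not show that the treatments add without interaction.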

How the data were processed

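Libraries of polyA RNA from 12 tumour samples in 4 treatment groups were made with a stranded TruSeq kit, per the labels' protocols. The authors deposited raw counts for each gene: reads were aligned with STAR 2.7.9a to GRCm39, per the submitters' processing notes, and read pairs were counted over exons on the reverse strand with featureCounts 1.6.0 and GENCODE M33, per the file headers. Symbols for 51948 of 56884 genes (91.3%) were matched by gene ID from an older GENCODE release. In R 4.3.3, edgeR 4.0.16 (TMM, filterByExpr, robust quasi-likelihood F test, 1 model over all 12 libraries with 4 groups, 8 residual degrees of freedom) tested 17757 genes, with Benjamini-Hochberg adjustment over all of them at 0.05. Standard errors are the absolute log2 difference over the square root of F. CPM use TMM-scaled library sizes, and log2 CPM a prior count of 2. The code was tested on simulated data. No per-sample column was left unused, and library pairs within a group differed by more than counting noise.

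Named genes are up to 12 largest rises and 12 largest falls at a mean log2 CPM no lower than 1 and with groups that do not overlap, the 8 smallest p, up to 5 members with the smallest p of each list, and 11 genes of the agent, T cells and cell cycle; against RT and FAP41BBL, up to 6 in each direction. Other list members were named after their values were seen. Members and lists were chosen with earlier results of these data known. Alternatives were other scalings, no filter, limma-voom 3.58.1, DESeq2 1.42.0, a minimum fold, 2 groups alone, a muscle score, a replicate block and leaving out each library; a keratinocyte score and list counts under each setting were added after seeing the data. Some genes of the lists count in the totals but are not reported here by name.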

Additional observations from a re-analysis of the deposited data

Results flagged for a closer look

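In 5 of the named genes, the change with radiotherapy differed between tumours given the agonist and tumours without it, by edgeR's test of the interaction over 17757 genes. These calls were not refitted with a library left out, with the muscle covariate or by another method. All of them use the RT libraries, whose muscle content cannot be told apart from the treatment. The values below are the log2 change with the agonist minus the log2 change without it. For Igfn1, a protein of muscle, it was -6.65 ± 0.91 (adjusted p = 0.0307), with a mean of 13.1 CPM in RT against 0.0632 in control, 0.102 in FAP41BBL and 0.201 in RT_FAP41BBL. The muscle markers as a list were also highest in RT. For Hsph1, the chaperone, it was -1.70 ± 0.23 (adjusted p = 0.0307), with a mean of 200.2 CPM in RT, 128 in FAP41BBL, 93.5 in control and 84.4 in RT_FAP41BBL. For Ptgs2 it was -1.48 ± 0.23 (adjusted p = 0.0311), with a mean of 158 CPM in RT, 119.9 in RT_FAP41BBL, 95.8 in FAP41BBL and 45.3 in control. For the p53 target Plk2 it was -0.70 ± 0.11 (adjusted p = 0.0311), with 40.8 CPM in control and 58.9, 60.8 and 54.2 in RT, FAP41BBL and RT_FAP41BBL. For Slc13a3 it was 2.56 ± 0.39 (adjusted p = 0.0311), with 8.72 CPM in RT_FAP41BBL, 6.54 in control, 5.28 in FAP41BBL and 1.83 in RT.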

How the results depend on the processing

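Against control, 1404 genes passed (993 higher, 411 lower), against RT 1022 and against FAP41BBL 168. With the muscle score as a covariate these were 740 (593 and 147), 0 and 90. With a minimum fold of 1.2 they were 604 (514 and 90), 342 and 0 (940 higher and 342 lower at an unadjusted p under 0.05). DESeq2 gave 2341 (901 lower), 2063 and 774. With 2 groups alone 3223 (1801 and 1422) passed against control and 269 against FAP41BBL. Leaving out 1 library gave 351 to 914 against control (258 to 756 higher, lowest without control 2, and 57 to 228 lower, lowest without RT_FAP41BBL 2). Against RT it gave 70 (without RT_FAP41BBL 3) to 2305 (without RT 3), and against FAP41BBL 0 (without FAP41BBL 1) to 132. The causes were not tested. Against control, all other settings stayed within 1.5 times: relative log expression 1410, library totals 1437, no filter 1226, limma-voom 1388 and the keratinocyte score, added after seeing the data, 1767.

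The replicate block gave 1564 calls against control (1091 higher, 473 lower), 1172 against RT and 163 against FAP41BBL. Same-numbered control and RT_FAP41BBL libraries had correlations of -0.078, -0.344 and -0.052 in their deviations from the group means. With 3 libraries a group, these values cannot show whether the numbers pair samples, and the labels do not say. Of the 6 pairs of groups, FAP41BBL and RT alone had all 3 over 0.1 (0.309, 0.176 and 0.432).

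The difference in Fap, -0.03 as reported, changed sign to 0.037 with the replicate block, 0.001 with limma-voom, 0.23 without control 3, 0.13 without RT_FAP41BBL 2 and 0.06 without RT_FAP41BBL 3, and ran from -0.3 to 0.23 with 1 library left out. Of 163 called single-gene results, 72 passed whichever library was left out. Fap, Tnfrsf9, Tnfsf9, Cd8a, Ifng, Foxp3 and Mki67 did not pass against control as reported. Among them 2 were called by DESeq2, 2 with 2 groups alone and 1 without RT_FAP41BBL 1. With the minimum fold, 29 interferon genes and 16 cholesterol genes passed in their direction, against 5 p53 targets and 1 T cell gene. Depth was alike in all libraries, and 3 libraries a group limit the precision.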
